A study of Mus musculus with 14 samples.

Results

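Early response transcription factors were followed through 7 groups of mouse hepatocyte libraries: the Fos family (Fos, Fosb, Fosl1 and Fosl2), the Jun family (Jun, Junb and Jund), Egr1 and Myc. These 9 genes were taken by symbol from a table of 21878 genes, in which all 9 were found, and 9 of 9 were among the 14100 genes that passed a filter on low counts. Hepatocytes, the main parenchymal cells of the liver, came from C57BL/6 mice, and RNA was sequenced in 14 libraries, 2 for each group. FH stands for cells taken fresh from the liver, and FH YAP-/- for fresh cells with the YAP-/- label. The name BM was given to cells sampled after 1 day (called BM 1D), after 3 days (called BM 3D) or after 3 weeks (called BM 3W) in vitro. BM 3W YAP-/- are cells with the YAP-/- label under that same name at 3 weeks, and LBDXL 3W are cells under the name LBDXL at 3 weeks. YAP is a transcriptional coactivator that responds to mechanical tension, and the title of the series names its inhibition as the way in which hepatocyte functions were kept in vitro. The sources used here do not give the age or sex of the animals, the composition of BM and LBDXL, or the way the YAP-/- state was made.

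AP-1 is a dimer of basic leucine zipper proteins in which a Jun protein pairs with another Jun protein or with a Fos protein, and it binds short DNA sites in promoters and enhancers. Fos, Fosb, Jun, Junb, Egr1 and Myc are textbook immediate early genes, transcribed soon after growth factor, stress or mechanical signals reach the cell through MAP kinases, whereas Fosl1 and Fosl2 usually follow later and Jund is present in many resting cells. In liver, Jun, Fos, Egr1 and Myc are known for their transient induction after partial hepatectomy and after the isolation of hepatocytes by perfusion.

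The promoters of Jun, Fos and Junb are shown because these genes encode the classical early partners of the dimer and because sites of the same protein class lie directly before their starts. RefSeq promoter windows around gene starts (GRCm38.p6, 300 bases) matched 6 of the 9 genes. Each line gives 140 bases before the annotated start, 5′ to 3′ on the strand of the gene, and capitals mark the 8-base AP-1 and CRE site TGACNTCA or the short CRE site TGACG. Jun lies at chr4:95052223-95052362 (minus strand), Fos at chr12:85473750-85473889 (plus strand) and Junb at chr8:84978749-84978888 (minus strand).
Jun: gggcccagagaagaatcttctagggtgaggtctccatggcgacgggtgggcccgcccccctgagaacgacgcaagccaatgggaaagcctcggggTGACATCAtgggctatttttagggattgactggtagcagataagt
Fos: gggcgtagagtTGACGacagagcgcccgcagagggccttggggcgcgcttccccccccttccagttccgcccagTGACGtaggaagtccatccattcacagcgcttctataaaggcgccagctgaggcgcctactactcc
Junb: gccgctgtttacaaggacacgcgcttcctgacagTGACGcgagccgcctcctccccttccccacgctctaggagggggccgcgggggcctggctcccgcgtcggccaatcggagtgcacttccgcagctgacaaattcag

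In these 6 windows, both strands were searched for 6 motifs: the AP-1 site TGANTCA, the longer site TGACNTCA, its short form TGACG, the CArG box, the Egr site GCGNGGGCG and the E-box CACGTG. Jun held the longer site as TGACATCA at -45 to -38 from its start, a motif found in 8.83% of all 32851 promoters. Fos held TGACG at -129 and -66, Junb at -106 and Fosb at -60, against 20.8% of all promoters. The Egr site GCGNGGGCG was found at -50 in Fosb and at -79 in Fosl2, against 5.55% of all promoters. TGACG overlaps the start of TGACNTCA wherever the base after it is G, and no window of these 6 genes held TGANTCA (7.81% of all), the CArG box (1.63%) or CACGTG (7.15%). Sequence outside these windows was not searched, and Fosl1, Egr1 and Myc had no window. The absence of a motif here therefore says nothing about sites farther from the start or in those genes. A match describes the letters only.

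Total counts ran from 15501005 to 21220365 per library, and levels below are CPM (library-size normalised counts) after TMM scaling, in which factors of 0.648 to 1.69 correct for genes that take a large share of a library. The YAP-/- label was met by lower Yap1 levels: 23.1 to 26.5 CPM in FH YAP-/- against 87.6 to 97.6 in FH, and 6.66 to 7.75 in BM 3W YAP-/- against 80.2 to 95.5 in BM 3W. All 10 hepatocyte markers had counts in every library, but their summed level was 224052 to 226759 CPM in FH and only 32676 in BM 3W 1 and 3400 in BM 3W 2. BM 3W also held 3086 to 3977 CPM of Kupffer cell and macrophage markers against 103 to 151 in FH, 6726 to 7134 of stellate cell and fibroblast markers against 101 to 122, and 4497 to 5222 of cholangiocyte markers against 44.2 to 47.9. The Kupffer cell genes Clec4f and Timd4 were nevertheless close to absent in BM 3W, at 7 and 3 and at 4 and 0 counts. LBDXL 3W 1 stood apart from LBDXL 3W 2 by its endothelial markers, at 203 against 8.70 CPM. In bulk RNA, fewer cells of a type and less RNA per cell cannot be told apart.

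Fos, the founding partner of Jun in AP-1, was highest in the fresh cells by TMM-scaled CPM. Its level was 26.2 and 16.9 CPM in the 2 FH libraries and 39.2 and 41.8 CPM in FH YAP-/-. In culture it was 2.98 and 9.01 CPM in BM 1D, 5.55 and 11.2 CPM in BM 3D and 12.3 and 9.07 CPM in BM 3W. LBDXL 3W had 4.55 and 1.15 CPM and BM 3W YAP-/- 2.58 and 2.77 CPM. The libraries of FH and of FH YAP-/- lay above every cultured library and did not overlap each other, while each of the 5 cultured groups overlapped its neighbour in the order of means. With total counts FH (17.1 and 10.9 CPM) overlapped BM 3W (18.4 and 15.3 CPM), and with FPKM it lay below (6.24 and 3.90 against 7.56 and 6.69), while FH YAP-/- was highest on all 3 scales.

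Fosb, a close relative of Fos that is likewise an immediate early gene, was present at low levels throughout. It had 1.11 and 0.633 CPM in FH, 1.04 and 1.20 CPM in FH YAP-/-, 1.94 and 1.04 CPM in BM 1D and 1.17 and 1.43 CPM in BM 3D. BM 3W was above all other groups, at 2.13 and 3.77 CPM. BM 3W YAP-/- (0.632 and 0.352 CPM) and LBDXL 3W (0.264 and 0.181 CPM, from 5 and 3 counts) lay below FH, and the neighbours from FH to BM 1D in the order of means overlapped. For BM 3W YAP-/- the gap to FH was narrow (0.632 against 0.633 CPM). With total counts its 0.364 to 0.639 CPM overlapped the 0.410 to 0.723 CPM of FH, and with FPKM both overlapped too.

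Fosl1 encodes Fra-1, a Fos protein without the transactivation domain of Fos that is known from migrating and invading cells. It had 0 counts in all 4 fresh libraries, which allows up to 0.237 to 0.239 CPM in FH and 0.207 to 0.240 CPM in FH YAP-/- (3 counts; counting error only). BM 1D reached 91.1 and 20.8 CPM, BM 3D 11.8 and 14.2 CPM and BM 3W 7.03 and 5.66 CPM. LBDXL 3W held 2.06 and 0.302 CPM (the latter from 5 counts) and BM 3W YAP-/- 2.33 and 2.01 CPM. The 3 BM times did not overlap and stood in the order of time from high to low, with the first day spread 4.37-fold between its libraries. Fosl1 overlaps Ccdc85b on the opposite strand, whose count never passed 303, and the sources used here do not say whether the counting used strand.

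Fosl2 encodes Fra-2, the other late Fos protein. Fresh cells had 11.1 and 13.2 CPM (FH) and 12.6 and 13.0 CPM (FH YAP-/-). BM cells had 36.4 and 84.2 CPM at 1 day, 22.7 and 40.2 CPM at 3 days and 49.9 and 82.7 CPM at 3 weeks, all above the fresh libraries. Lower values were found in BM 3W YAP-/- (24.1 and 21.9 CPM) and LBDXL 3W (22 and 8.94 CPM). Every group overlapped its neighbour in the order of means, from FH as the lowest to BM 3W as the highest.

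**Figure D1:**
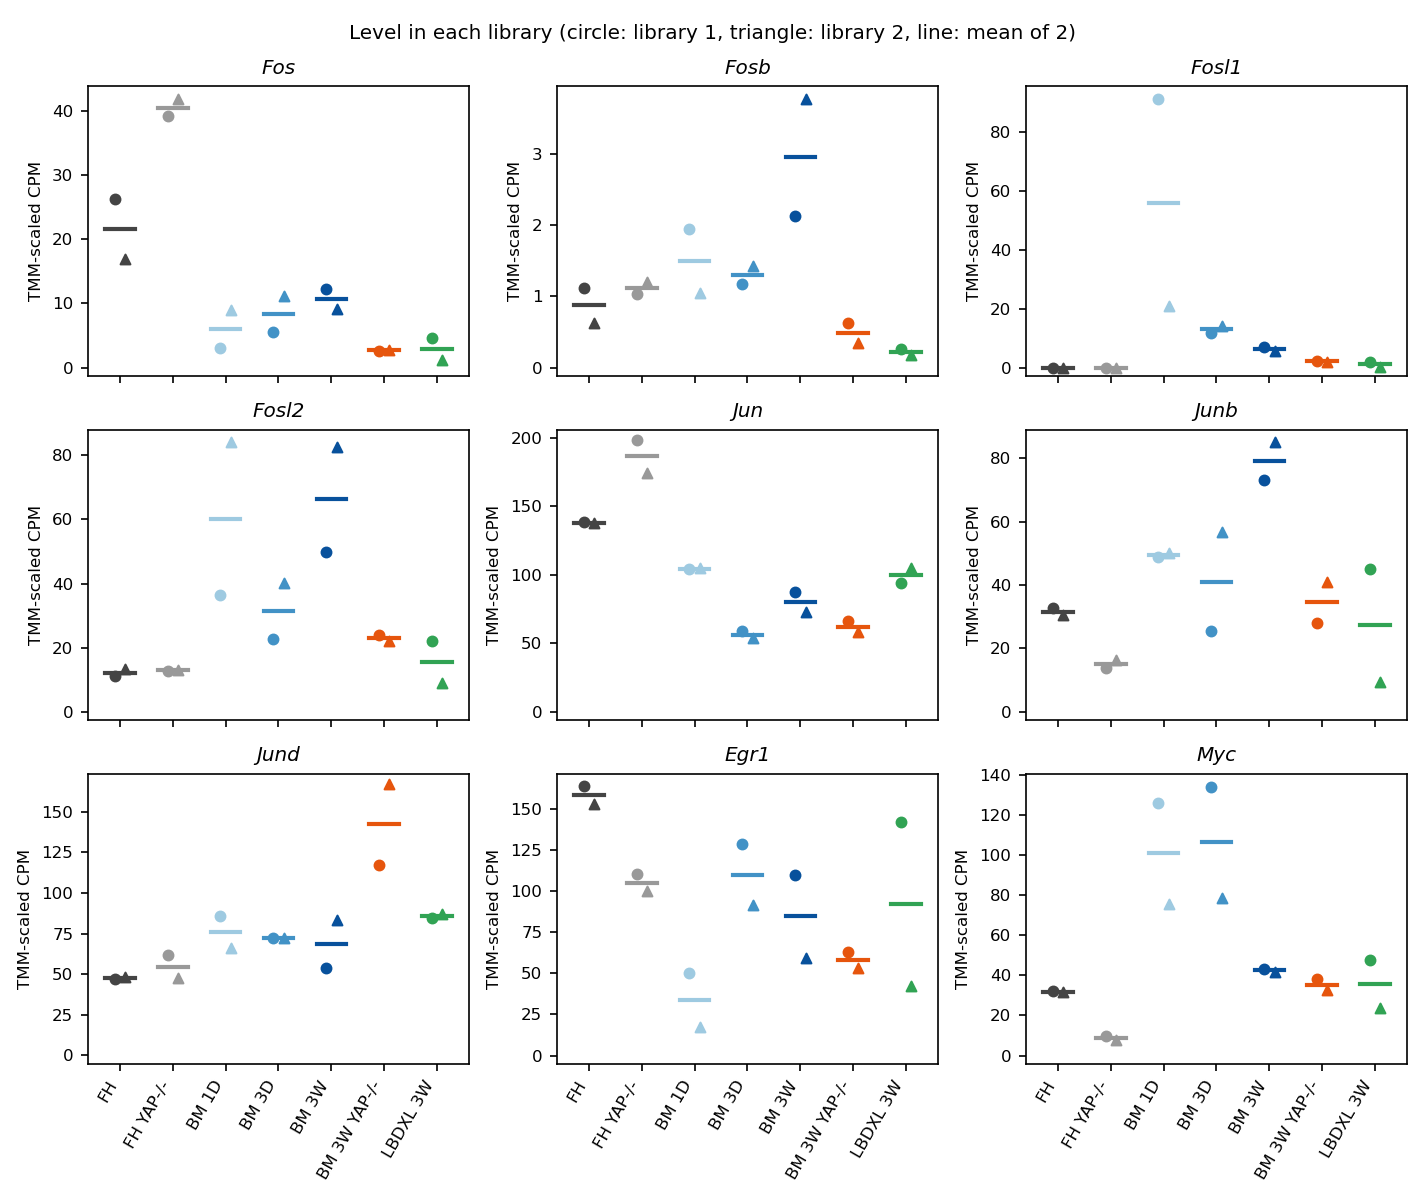
TMM-scaled CPM of the 9 genes (y axis, linear and starting near 0) in each library by group; circles are library 1, triangles library 2 and lines the mean of 2. Fosl1 is at 0 in all 4 fresh libraries and at 91.1 and 20.8 CPM in BM 1D, whereas Fos is highest in FH YAP-/- (39.2 and 41.8 CPM).

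Which Fos gene made up most of the family differed between fresh and cultured cells. The measure here is the share of a gene in the summed FPKM of the 4 Fos genes within a library, which is per length and does not depend on how libraries are scaled to each other. Fos held 71.0 to 81.2% of the family in FH and 86.7 to 87.3% in FH YAP-/-. In cultured libraries its share was 2.50 to 13.5% in BM 1D, 19.7 to 24.0% in BM 3D, 18.2 to 27.8% in BM 3W, 17.0 to 20.6% in BM 3W YAP-/- and 25.3 to 27.6% in LBDXL 3W. Every cultured library thus lay below every fresh library.

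Fosl1 took 84.0% of the family in BM 1D 1 and 35.2% in BM 1D 2, then 37.7 to 45.7% in BM 3D and 13.2 to 18.9% in BM 3W. Fosl2 took 12.7 and 50.5% in the same BM 1D libraries, 32.2 to 36.3% in BM 3D and 50.6 to 64.3% in BM 3W. At 3 weeks Fosl2 was the leading Fos gene in all 6 cultured libraries, with 61.5 to 65.0% in BM 3W YAP-/- and 57.1 to 64.2% in LBDXL 3W. The share of Fosl1 in BM 3W YAP-/- (15.8 to 16.2%) fell inside the range of BM 3W. Counts per exon length in place of FPKM gave Fosl2 36.3% and Fos 36.9% in BM 3W 1, so the lead of Fosl2 in that library depended on the unit, while it held in the other 5. In BM 1D 2 the same unit gave Fosl1 44.7% and Fosl2 37.9%, so the lead of Fosl2 there depended on the unit as well.

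**Figure D2:**
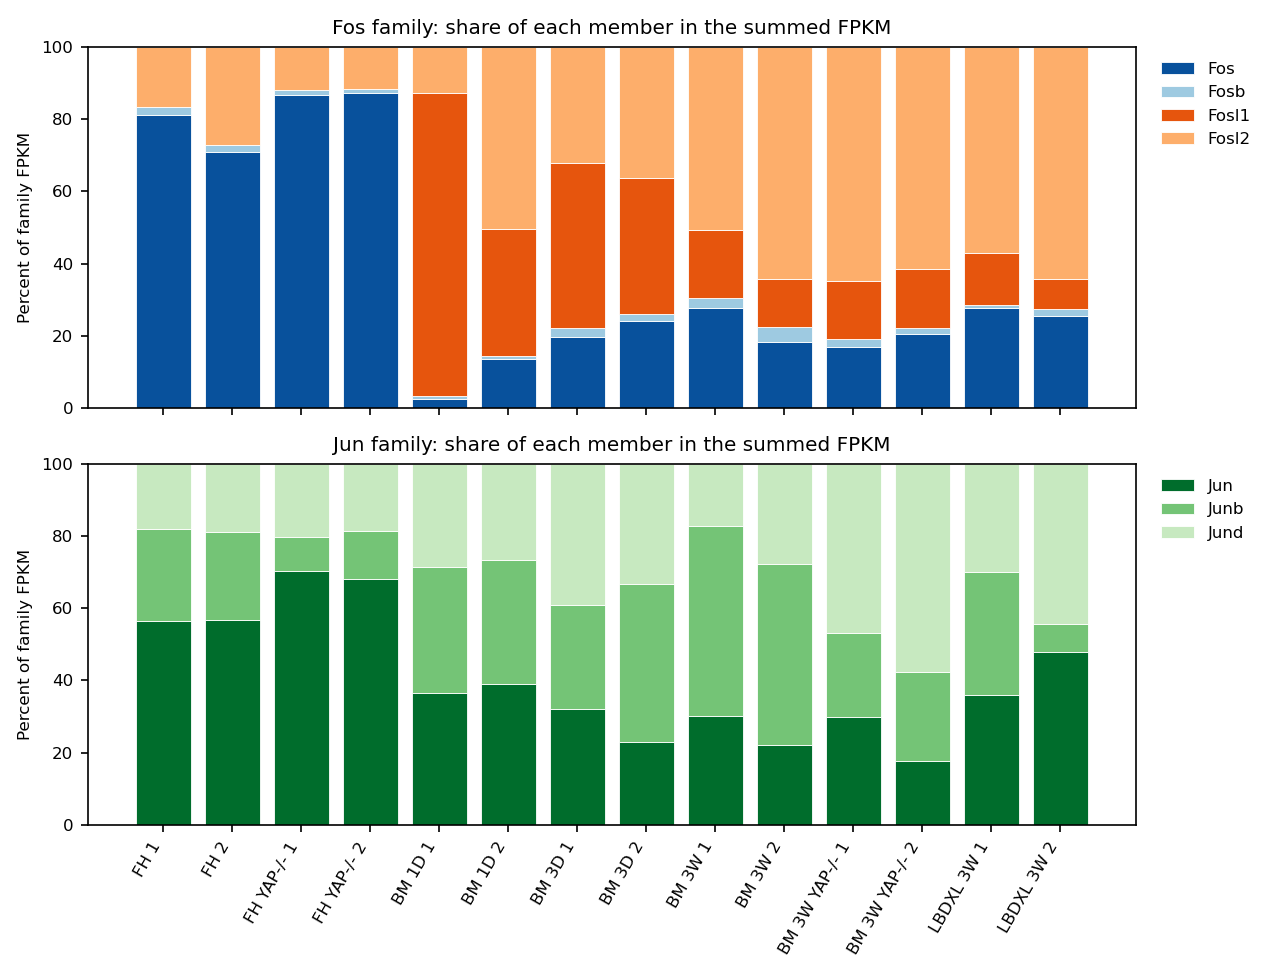
Share (percent, y axis) of each member in the summed FPKM of the Fos family (top) and of the Jun family (bottom), 1 stacked bar for each library. Fos fills 71.0 to 87.3% of its family in the 4 fresh libraries, and Fosl2 fills 50.6 to 65.0% in the 6 libraries at 3 weeks.

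Jun, a partner of Fos in AP-1, was highest in fresh cells by TMM-scaled CPM. It had 138 and 137 CPM in FH and 198 and 174 CPM in FH YAP-/-. BM 1D had 104 and 105 CPM, BM 3D 58.5 and 53.4 CPM and BM 3W 87.6 and 72.7 CPM. BM 3W YAP-/- lay at 66.0 and 57.7 CPM and LBDXL 3W at 94.0 and 105 CPM. This order depended on the scaling: with total counts, FH had 89.1 to 89.8 CPM, below the 127 to 130 CPM of BM 1D and the 123 to 131 CPM of BM 3W.

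Junb encodes a Jun protein with weaker transactivation that can restrain Jun. Its level was 32.7 and 30.5 CPM in FH and 13.9 and 16.4 CPM in FH YAP-/-, which did not overlap. BM cells had 48.9 and 50.1 CPM at 1 day, 25.3 and 56.7 CPM at 3 days and 73.2 and 85.2 CPM at 3 weeks. The BM 3W YAP-/- libraries had 27.8 and 41.1 CPM, and the LBDXL 3W libraries lay 4.74-fold apart at 45.0 and 9.48 CPM. BM 3W alone stood clear of its neighbour in the order of means. Junb overlaps Prdx2 on the opposite strand, which reached 4928 counts, so its level is uncertain where strand was not used.

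Jund encodes the Jun protein of resting cells. It had 46.8 and 48.3 CPM in FH, 61.6 and 47.8 CPM in FH YAP-/-, 86.2 and 65.9 CPM in BM 1D, 72.5 and 72.3 CPM in BM 3D and 53.6 and 83.4 CPM in BM 3W. LBDXL 3W had 84.6 and 87.1 CPM. BM 3W YAP-/- was the highest at 117 and 167 CPM and did not overlap its neighbour, while all other neighbours overlapped. With total counts its 119 to 173 CPM overlapped the 79.9 to 141 CPM of BM 3W.

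Within the Jun family, Jun held 56.5 to 56.8% of the summed FPKM in FH and 68.2 to 70.4% in FH YAP-/-. Its share was 36.5 to 38.9% in BM 1D, 22.8 to 32.1% in BM 3D and 22.2 to 30.1% in BM 3W. Junb held 50.1 to 52.6% in BM 3W, and Jund 46.7 to 57.5% in BM 3W YAP-/-. Here the lead in BM 3W depended on the unit, since counts per exon length gave 33.7 to 34.8% to Junb and 35.1 to 45.5% to Jund. In BM 1D, where Jun led by FPKM, that unit gave 30.9 to 35.0% to Jun and 41.9 to 49.0% to Jund.

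Egr1 is a zinc finger factor that binds GC-rich sites and is switched on by the same signals as Fos. Its level was 164 and 153 CPM in FH and 111 and 99.8 CPM in FH YAP-/-. It was lowest in BM 1D at 50.4 and 17.5 CPM, then 129 and 91.3 CPM in BM 3D and 110 and 59.2 CPM in BM 3W. BM 3W YAP-/- had 63.2 and 53.2 CPM, and LBDXL 3W ranged from 142 to 42.2 CPM. FH stood clear above the other groups, and from BM 3W YAP-/- to BM 3D each neighbour in the order of means overlapped the next. With total counts FH was no longer the highest, at 106.5 and 99.1 CPM against 174.8 and 104.7 CPM in BM 3D and 164.3 and 100.1 CPM in BM 3W.

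Myc drives growth, ribosome production and metabolism as a partner of Max. It had 32.0 and 31.5 CPM in FH and 9.52 and 8.0 CPM in FH YAP-/-, the lowest of all groups. BM 1D reached 126 and 75.7 CPM and BM 3D 134 and 78.7 CPM. At 3 weeks Myc was at 43.0 and 41.9 CPM in BM 3W, 38.2 and 32.4 CPM in BM 3W YAP-/- and 47.4 and 23.6 CPM in LBDXL 3W. How near BM 3W came to FH depended on the scaling. With total counts BM 3W had 64.2 and 70.8 CPM against 20.8 and 20.4 CPM in FH, and with FPKM 21.7 and 26.6 against 6.79 and 6.53. BM 1D and BM 3D overlapped each other and lay above every other library.

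At 1 day of BM culture the 9 genes split. Against FH, Fosl2 was 4.95-fold and Myc 3.18-fold higher, Fosl1 at least 235-fold higher, and Egr1 and Fos fell by 2.22 and 1.85 on the log2 scale. The log2 fold changes in edgeR's quasi-likelihood test were 2.31 ± 0.50 (SE) for Fosl2 (adjusted p = 0.0036), 1.67 ± 0.36 for Myc (0.0037), -2.22 ± 0.58 for Egr1 (0.010) and -1.85 ± 0.62 for Fos (0.031), and Fosl1 passed at 0.00031. In total 3 of 9 rose and 2 fell, against 43.8% of all genes tested that changed (23.6% higher and 20.2% lower). The libraries of 8 of the 9 did not overlap, against 75.1% of all genes. Jun at -0.40 ± 0.18 (0.092) did not pass, and it was 0.52 with total count scaling (0.033). Total count scaling, which moved the median of all genes by 0.92, gave 7 members higher and 0 lower, with 50.1% of all genes higher and 9.58% lower, and left Fos at -0.92 (0.20) and Egr1 at -1.30 (0.067). Fos also lost its call without BM 1D 1, FH 1 or FH 2 (0.053 to 0.17) and was -2.85 without BM 1D 2, while Egr1 lost its call without BM 1D 2 (-1.65, 0.064). The bound for Fosl1 was 87.3-fold from BM 1D 2 alone. Hepatocyte markers summed to 59597 to 67956 CPM in BM 1D against 224052 to 226759 in FH, and cholangiocyte markers to 249.05 to 383.05 against 44.2 to 47.9, and their part was not tested.

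At 3 days Myc, Fosl2 and Fosl1 were still above FH and Jun was lower. Myc was 3.35-fold higher (log2 1.75 ± 0.36, adjusted p = 0.0032), Fosl2 2.58-fold (1.37 ± 0.48, 0.043) and Fosl1 at least 54.5-fold (0.0013). Jun fell by 1.30 ± 0.18 on the log2 scale (0.00037). These 4 calls among 9 compare with 40.5% of all genes tested (22.5% higher and 17.9% lower), and 8 of 9 did not overlap, against 75.0%. With total count scaling 4 members were higher and 0 lower (53.7% and 7.36% of all genes), and Jun was -0.34 (0.13). Fosl2 lost its call without BM 3D 2 (0.90, 0.23) and without any library of FH, FH YAP-/- or BM 3W YAP-/- (0.058 to 0.18). Hepatocyte markers summed to 35211 to 81923 CPM in BM 3D and cholangiocyte markers to 160 to 666 CPM, and their part was not tested.

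Between the first days 1 of the 9 genes was called: Jun fell from BM 1D to BM 3D by 0.90 ± 0.18 on the log2 scale (adjusted p = 0.020), where 5.26% of all genes tested were called (3.67% higher and 1.60% lower), and 3 of 9 did not overlap, against 45.0%. It lost the call without any of the 4 libraries compared (0.054 to 0.088). From BM 3D to BM 3W, Myc fell by 1.33 ± 0.35 (0.021) as the single call among 9, against 24.4% of all genes (13.5% higher and 10.9% lower), and 6 of 9 did not overlap, against 63.0%. Of cell type markers in this comparison, 10 of 12 macrophage genes rose and 1 fell. Among stellate cell genes 11 of 12 rose and 0 fell, and among hepatocyte genes 4 of 10 fell and 0 rose. The part of these cells was not tested. Myc did not pass without BM 3D 1 (-0.90, 0.14), BM 3W 1 or BM 3W 2 (0.087 and 0.11), nor with total count scaling (-1.01, 0.084), which gave 2 members higher and 0 lower (18.0% and 4.99% of all genes).

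At 3 weeks of BM culture all Fos genes but Fos itself were above FH. Fosl2 was 5.45-fold higher (log2 2.45 ± 0.50, adjusted p = 0.0017), Fosb 3.36-fold (1.75 ± 0.59, 0.026) and Fosl1 at least 26.6-fold (0.0015). Jun fell by 0.78 ± 0.18 (0.0034) with TMM but was higher by 0.50 (0.031) with total count scaling and by 0.61 and 0.63 (0.0069 and 0.0067) from FPKM. Of the 9, 3 rose and 1 fell, against 59.1% of all genes tested (33.0% higher and 26.1% lower), and 9 of 9 did not overlap, against 87.0%. Fos at -1.01 (0.16), Egr1 at -0.90 (0.18), Myc at 0.42 (0.32) and Junb at 1.32 (0.063) did not pass, and Fos and Egr1 changed sign with total count scaling (0.27 and 0.36). Junb passed with total count scaling (0.0018), both FPKM scales, the compared groups alone (0.00084), DESeq2 (0.027), DESeq2 size factors (0.049) and without LBDXL 3W 1 or LBDXL 3W 2 (0.0059 each). That scaling moved the median of all genes by 1.29 and gave 7 members higher and 0 lower (65.8% and 9.67% of all genes). Fosb lost its call without BM 3W 2 (1.28, 0.18), FH 1 or FH 2 (0.056 and 0.16). The summed markers of other cells given above were also higher in BM 3W than in FH, and the part of those cells in the result was not tested.

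In LBDXL cells at 3 weeks 3 of these genes differed from FH. Fos fell by 2.91 ± 0.65 on the log2 scale (adjusted p = 0.0099), Jund was 1.81-fold higher (0.85 ± 0.26, 0.037), and Fosl1 was at least 4.95-fold higher (0.041). These 3 calls among 9 compare with 21.3% of all genes tested (11.7% higher and 9.60% lower), and 6 of 9 did not overlap, against 63.6%. With total count scaling 2 members were again higher and 1 lower, with 25.5% and 5.83% of all genes. Fos lost its call without FH 1 (0.063) and was -4.22 without LBDXL 3W 1, Jund lost it without any library of FH, FH YAP-/- or LBDXL 3W (0.053 to 0.18), and Fosl1 without any library of BM 3D, BM 3W, BM 3W YAP-/- or FH or without LBDXL 3W 1 (0.055 to 0.23). The bound for Fosl1 was 1.27-fold from LBDXL 3W 2 alone, with 5 counts, and 8.64-fold from LBDXL 3W 1 alone. In LBDXL 3W 1, the library with the higher endothelial markers, 7 of the 9 genes were higher than in LBDXL 3W 2, and 6 of 9 differed over 2-fold between both libraries. All genes tested also spread widely between them. The SD of their log2 difference was 1.09, against 0.471 to 0.949 in the other groups. The part of the endothelial markers was not tested.

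Set against BM 3W at the same time, LBDXL 3W had lower levels of all 4 Fos genes and of Junb. The log2 fold changes were -3.68 ± 0.66 for Fosb (adjusted p = 0.0014), -2.10 ± 0.49 for Fosl2 (0.0058), -1.90 ± 0.63 for Fos (0.030), -2.39 ± 0.82 for Fosl1 (0.040) and -1.54 ± 0.57 for Junb (0.046). No member rose and 5 fell, against 44.8% of all genes tested (21.1% higher and 23.7% lower), and 7 of 9 did not overlap, against 73.0%. Egr1 did not pass at 0.12 (0.88), and it was -0.65 with total count scaling (0.34) and -1.0 without LBDXL 3W 1 (0.16). Total count scaling gave 0 higher and 7 lower (8.05% and 47.2% of all genes).

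The size of these differences depended on which LBDXL 3W library was kept. Without LBDXL 3W 1 Fos was -3.21, Fosl1 -4.36 and Junb -3.06, and without LBDXL 3W 2 they were -1.23 (adjusted p = 0.17), -1.61 (0.16) and -0.81 (0.17) and no longer passed. Fos also lost its call without either BM 3W library (0.11 and 0.056), Fosl1 without any library of BM 3D, BM 3W or BM 3W YAP-/- (0.050 to 0.11) and Junb without any library of BM 1D, BM 3W, BM 3W YAP-/-, FH or FH YAP-/- (0.056 to 0.14). Macrophage markers summed to 5.26 to 5.97 CPM in LBDXL 3W, with 8 to 9 of 12 detected and Clec4f and Timd4 at 0 counts, and stellate cell markers to 283 to 523 CPM. Their part in the lower AP-1 levels was not tested.

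YAP-/- cells in BM culture also had less Fos, Fosb and Fosl2 than BM 3W and more Jund. The log2 fold changes were -2.57 ± 0.61 for Fosb (adjusted p = 0.0099), -2.0 ± 0.63 for Fos (0.034), -1.53 ± 0.48 for Fosl2 (0.033) and 1.05 ± 0.26 for Jund (0.011). One of the 9 rose and 3 fell, against 31.6% of all genes tested (15.0% higher and 16.6% lower), and 8 of 9 did not overlap, against 71.1%. Fosl1 was -1.54 ± 0.77 and did not pass (0.16), though it did with total count scaling (-2.17, 0.048). Total count scaling moved the median of all genes by -0.64 and gave 0 members higher and 6 lower (5.66% and 35.8% of all genes), with Jund at 0.40 (0.28).

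Several of these calls needed single libraries. Fos did not pass without any of the 4 libraries compared or either FH YAP-/- library (adjusted p = 0.053 to 0.15), Fosb without BM 3W 2 or BM 3W YAP-/- 2 (0.078 and 0.092), Fosl2 without BM 3W 2 (-1.12, 0.18), BM 3W YAP-/- 1 or BM 3W YAP-/- 2 (0.11 and 0.16), and Jund without BM 3W 1 or BM 3W YAP-/- 2 (0.089 and 0.095). The comparison shares the BM 3W libraries with that of LBDXL 3W. Macrophage markers summed to 375 to 431 CPM in BM 3W YAP-/-, with all 12 detected, and stellate cell markers to 374 to 462 CPM, again 12 of 12. Both sums were below BM 3W, and their part in the result was not tested.

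In freshly isolated cells the YAP-/- label went with lower Myc. Myc fell by 1.85 ± 0.37 on the log2 scale, 3.62-fold (adjusted p = 0.047), as the single call among the 8 members that could be tested, against 0.943% of all genes tested (0.489% higher and 0.454% lower). The libraries of 5 of the 9 did not overlap, against 60.5%. Fosl1 had 0 counts in both groups and could not be tested. The call for Myc was lost without any library of FH, FH YAP-/-, BM 3W or BM 3W YAP-/- (0.068 to 0.43), while its size stayed between -1.99 and -1.73, and with total count scaling it was -1.77 (0.083). Heat shock genes were called in the same comparison, 5 of 10 higher and 0 lower (1 without any FH or FH YAP-/- library and 3 without BM 3W YAP-/- 1), among them Hspa1b (2.45 ± 0.27, 0.0019) and Hsp90aa1 (1.72 ± 0.29, 0.022), and so did the stress-induced factor Atf3 (2.49 ± 0.35, 0.0090) and Gadd45b (3.05 ± 0.49, 0.020). Whether RNA quality or handling differed between the fresh groups was not tested.

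Culture of YAP-/- cells was set against their own fresh control. Against FH YAP-/-, BM 3W YAP-/- had 4.03-fold more Myc (log2 2.01 ± 0.37, adjusted p = 0.0021), 2.60-fold more Jund (1.38 ± 0.26, 0.0023) and at least 9.05-fold more Fosl1 (0.011). Fos fell by 3.92 ± 0.67 (0.0013) and Jun by 1.59 ± 0.18 (0.00016). Of the 9, 3 rose and 2 fell, against 36.3% of all genes tested (19.8% higher and 16.5% lower), and 9 of 9 did not overlap, against 75.4%. With total count scaling 5 members were higher and 2 lower (36.8% and 9.06% of all genes). Fosl1 lost its call without either FH YAP-/- library (0.058 and 0.051). Among cell type markers in the same comparison, 9 of 10 endothelial and 4 of 10 hepatocyte genes fell, and 7 of 12 stellate cell and 4 of 7 tested cholangiocyte genes rose, and their part was not tested.

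The difference between the YAP-/- effect in BM 3W and that in fresh cells was tested as an interaction. It was -2.91 ± 0.86 for Fos (adjusted p = 0.042) and -2.92 ± 0.86 for Fosb (0.040) on the log2 scale, 2 calls among 8 tested members, both lower, against 16.9% of all genes tested (8.04% higher and 8.84% lower). Fos fell in the YAP-/- libraries at 3 weeks, while in fresh cells its difference did not pass (adjusted p = 0.81), with both FH YAP-/- libraries above both FH libraries. Jun at -0.81 ± 0.25 (0.050) and Myc at 1.59 ± 0.51 (0.054) did not pass, although both passed in a fit on these 4 groups alone (0.027 and 0.0014) and in DESeq2 (0.0012 and 0.041). The calls for Fos and Fosb were lost without any 1 of the 8 libraries involved (0.070 to 0.15 for Fos and 0.055 to 0.15 for Fosb). The part of the heat shock genes, Atf3 and Gadd45b, which were higher in FH YAP-/- than in FH, in this difference was not tested. Total count scaling gave 0 members higher and 4 lower, with 3.28% and 19.7% of all genes.

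**Figure D3:**
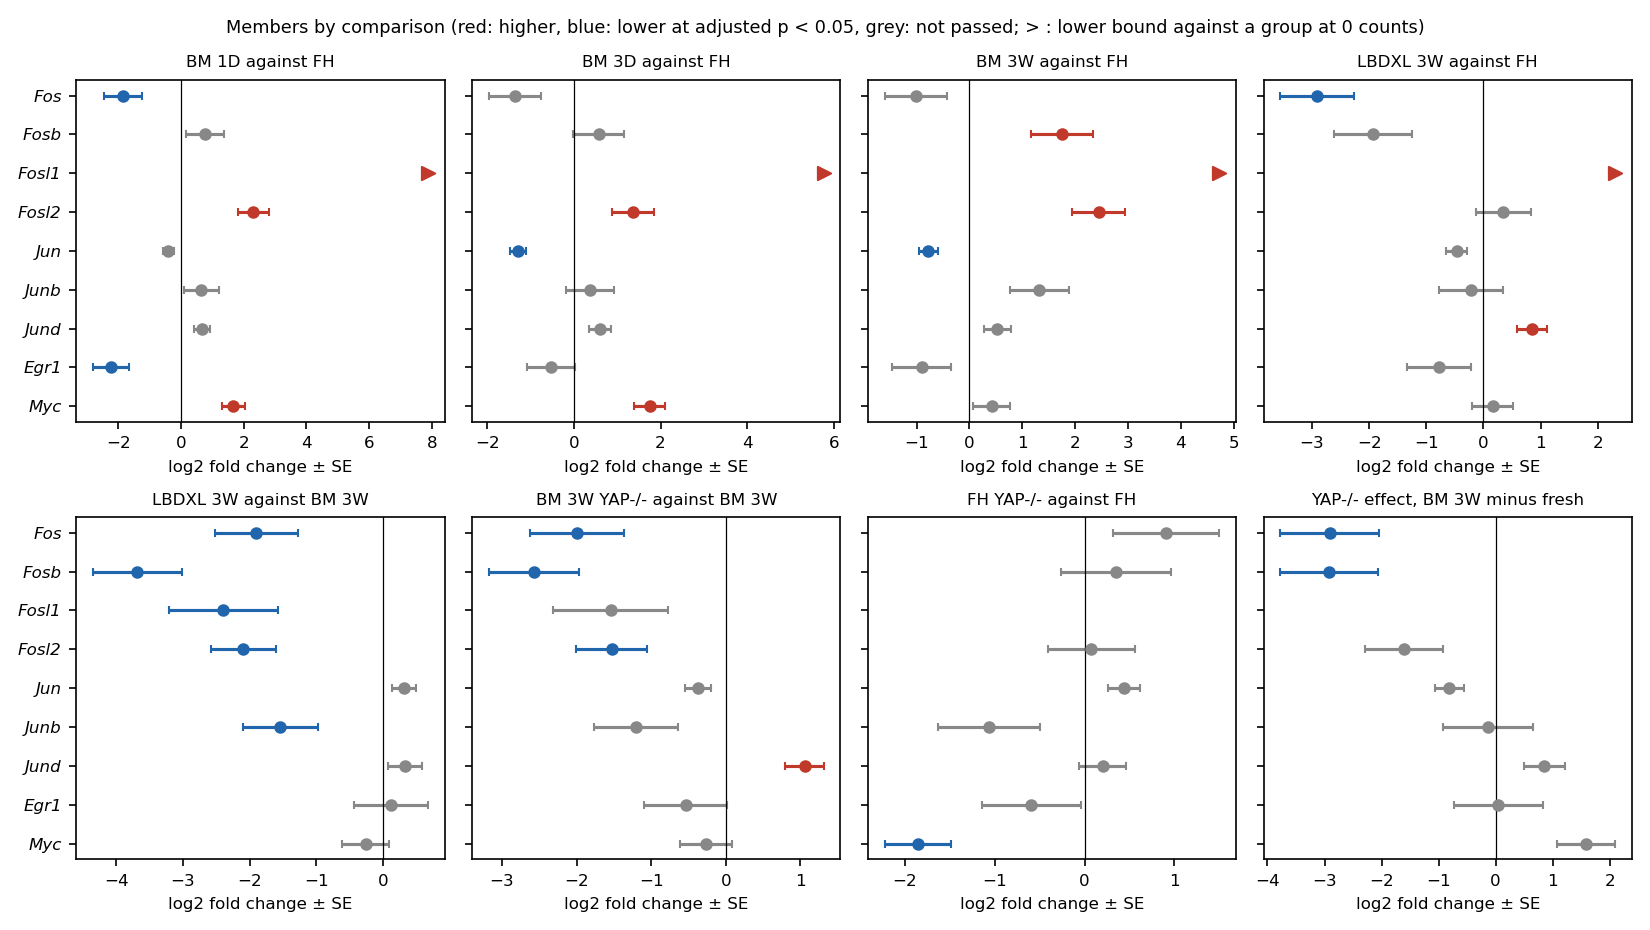
Log2 fold change ± SE (x axis, TMM scaling, a scale of its own in each panel) of each member in 8 comparisons; red and blue points passed an adjusted p of 0.05, grey points did not, and arrows mark lower bounds for Fosl1 against groups at 0 counts. Fosb, Fosl2, Fos, Fosl1 and Junb lie below 0 in LBDXL 3W against BM 3W, and Jun in BM 3W against FH, here -0.78, was 0.50 with total count scaling.

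Most of the listed genes that AP-1 is known to regulate rose during BM culture. Of 24 listed AP-1 target genes, 14 rose and 1 fell in BM 1D against FH, 15 and 0 in BM 3D and 22 and 0 in BM 3W, beside the shares of all genes given above. Those shares, given for each comparison and for total count scaling, also stand beside the counts of the lists below. The 14 became 9 without FH 1 or FH 2. The median log2 fold change of the list in BM 3W was 7.47, or 5.35 with genes absent from FH at their lower bound, against 0.17 over all genes. Lgals3, which encodes galectin-3, was at 228 ± 22.8 CPM (SD, n = 2) in BM 3W against 0.952 ± 0.228 in FH. Krt18, a keratin of simple epithelia, was at 3292 ± 37.5 CPM in BM 1D against 129 ± 6.46 in FH.

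At 3 weeks many genes of this list were lower in the other 2 cultures than in BM 3W. Of its 24 genes, 0 rose and 18 fell in LBDXL 3W, and 0 rose and 13 fell in BM 3W YAP-/-, 2 comparisons that share their control. The 18 ran from 15 to 20 with a library left out, while the 13 became 8 without BM 3W 1 or BM 3W YAP-/- 1, 7 without BM 3W 2 and 5 without BM 3W YAP-/- 2. Mmp12, a macrophage elastase, was at 726 ± 446 CPM (SD, n = 2) in BM 3W, 0.340 ± 0.0321 in LBDXL 3W and 0.425 ± 0.395 in BM 3W YAP-/-. Spp1, an osteopontin gene that also stands among the cholangiocyte markers, was at 4688 CPM in BM 3W and 12.4 CPM in LBDXL 3W. Against FH, 7 of the 24 rose in LBDXL 3W and 0 fell, and 0 rose without FH 1, FH 2 or LBDXL 3W 1. The sums of macrophage and stellate cell markers were likewise highest in BM 3W. So was that of cholangiocyte markers, at 4497 to 5222 CPM, but most of it came from Spp1, so it is not separate from this list.

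Other immediate early genes moved in both directions. Of 22 tested (24 listed), 11 rose in each BM time against FH, while 2, 3 and 3 fell. Klf6, a zinc finger factor, was at 443 ± 212 CPM in BM 1D against 4.84 ± 1.14 in FH (SD, n = 2), and Gadd45b rose by 3.63 ± 0.49 on the log2 scale (adjusted p = 0.00023). Zfp36, which promotes the decay of short-lived mRNAs such as that of Fos, fell by 2.71 ± 0.34 (0.00014). In LBDXL 3W against BM 3W 3 rose and 12 fell, a count of 4 without BM 3W 2 and of 6 without LBDXL 3W 2. In BM 3W YAP-/- against BM 3W 1 rose and 4 fell, or 12 with total count scaling and 0 without BM 3W YAP-/- 1 or BM 3W YAP-/- 2. Errfi1, an inhibitor of the EGF receptor, was the one that rose in BM 3W YAP-/-, to 1180.5 ± 176 CPM against 171 ± 65.1 in BM 3W.

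Among 12 tested bZIP genes whose proteins can pair with Fos or Jun (13 listed), 5 rose and 1 fell in BM 1D, 5 and 1 in BM 3D and 7 and 2 in BM 3W, each against FH. Atf3 rose by 4.87 ± 0.36 on the log2 scale in BM 1D (adjusted p = 1e-05) and Mafk by 2.18 ± 0.25 (7.7e-05). In LBDXL 3W against BM 3W 1 rose and 5 fell, and in BM 3W YAP-/- 0 rose and 2 fell, among them Maf, where total count scaling gave 9 and 11 lower. The 5 that fell became 3 without BM 3W 1 and 2 without BM 3W 2 or LBDXL 3W 2.

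The kinases and factors upstream of AP-1 moved in both directions with TMM scaling. Of 22 tested (23 listed), 6 rose and 2 fell in BM 1D, 5 and 3 in BM 3D and 5 and 8 in BM 3W. Over all genes tested 23.6%, 22.5% and 33.0% rose and 20.2%, 17.9% and 26.1% fell. The medians of the list were 0.07, 0.04 and -0.41 on the log2 scale against 0.17 over all genes in each. Egfr, the EGF receptor, was at 140 ± 21.9 CPM in BM 3W against 2068 ± 33.1 in FH (SD, n = 2), and Mapk3, which encodes ERK1, rose by 2.03 ± 0.32 (adjusted p = 0.00034). The direction depended on the scaling: total counts gave 15 higher and 1 lower in BM 3W, where 65.8% of all genes were higher and 9.67% lower. With TMM scaling fewer fell in BM 3W without BM 3W 2. In BM 3W YAP-/- against BM 3W 2 rose and 2 fell, or 0 and 7 with total counts, where 5.66% of all genes were higher and 35.8% lower. Srf, the serum response factor, was 2.07 ± 0.33 higher in BM 1D (0.00066).

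Egr1 corepressors and targets mostly rose where they were called. Of 12 genes, 4 rose and 1 fell in BM 1D, 7 and 0 in BM 3D and 9 and 1 in BM 3W against FH, where the 7 became 4 without FH 1 or FH 2, and Egr2 and Egr3 also stand among the immediate early genes. Pdgfa, a growth factor gene, rose by 3.06 ± 0.31 (adjusted p = 4.6e-05) in BM 1D, where Egr1 itself was lowest, and by 2.39 ± 0.31 (8.4e-05) in BM 3W. In LBDXL 3W against BM 3W 2 rose and 7 fell, and in BM 3W YAP-/- 1 rose and 4 fell, or 8 with total count scaling. Tgfb1 was at 52.8 ± 9.22 CPM (SD, n = 2) in BM 3W and 4.89 ± 5.20 in LBDXL 3W.

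Most of the listed Myc target genes rose on the first day, when Myc was high. Of 26, 18 rose and 0 fell in BM 1D, 10 and 1 in BM 3D and 4 and 3 in BM 3W against FH, with medians of 1.11, 0.62 and -0.32 on the log2 scale. Fewer rose in BM 1D and in BM 3D without FH 1 or FH 2, and in BM 3D also without BM 3D 1. Total count scaling gave 16 higher and 1 lower in BM 3W, where 65.8% of all genes were higher and 9.67% lower. Cad, an enzyme of pyrimidine synthesis, rose by 3.10 ± 0.37 in BM 1D (adjusted p = 0.00011), and Mybbp1a, a nucleolar protein gene, by 2.05 ± 0.26 (0.00016). From BM 3D to BM 3W 1 rose and 6 fell, among them Odc1, the rate-limiting enzyme of polyamine synthesis, by 1.29 ± 0.29 (0.0086). The count that fell was 0 without BM 3D 1, 1 without BM 3W 1 or BM 3W 2, 3 without FH 2 and 14 without BM 3D 2. In FH YAP-/- against FH, where Myc was lower, 0 of 26 rose and 0 fell in edgeR fitted on all groups, while 11 rose in a fit on these 2 groups alone, which called 18.1% of all genes higher and 19.4% lower. Of 11 Myc partners, 2 rose and 1 fell in BM 1D, 3 and 0 in BM 3D and 3 and 1 in BM 3W. Over all genes tested 23.6%, 22.5% and 33.0% rose and 20.2%, 17.9% and 26.1% fell.

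**Figure D4:**
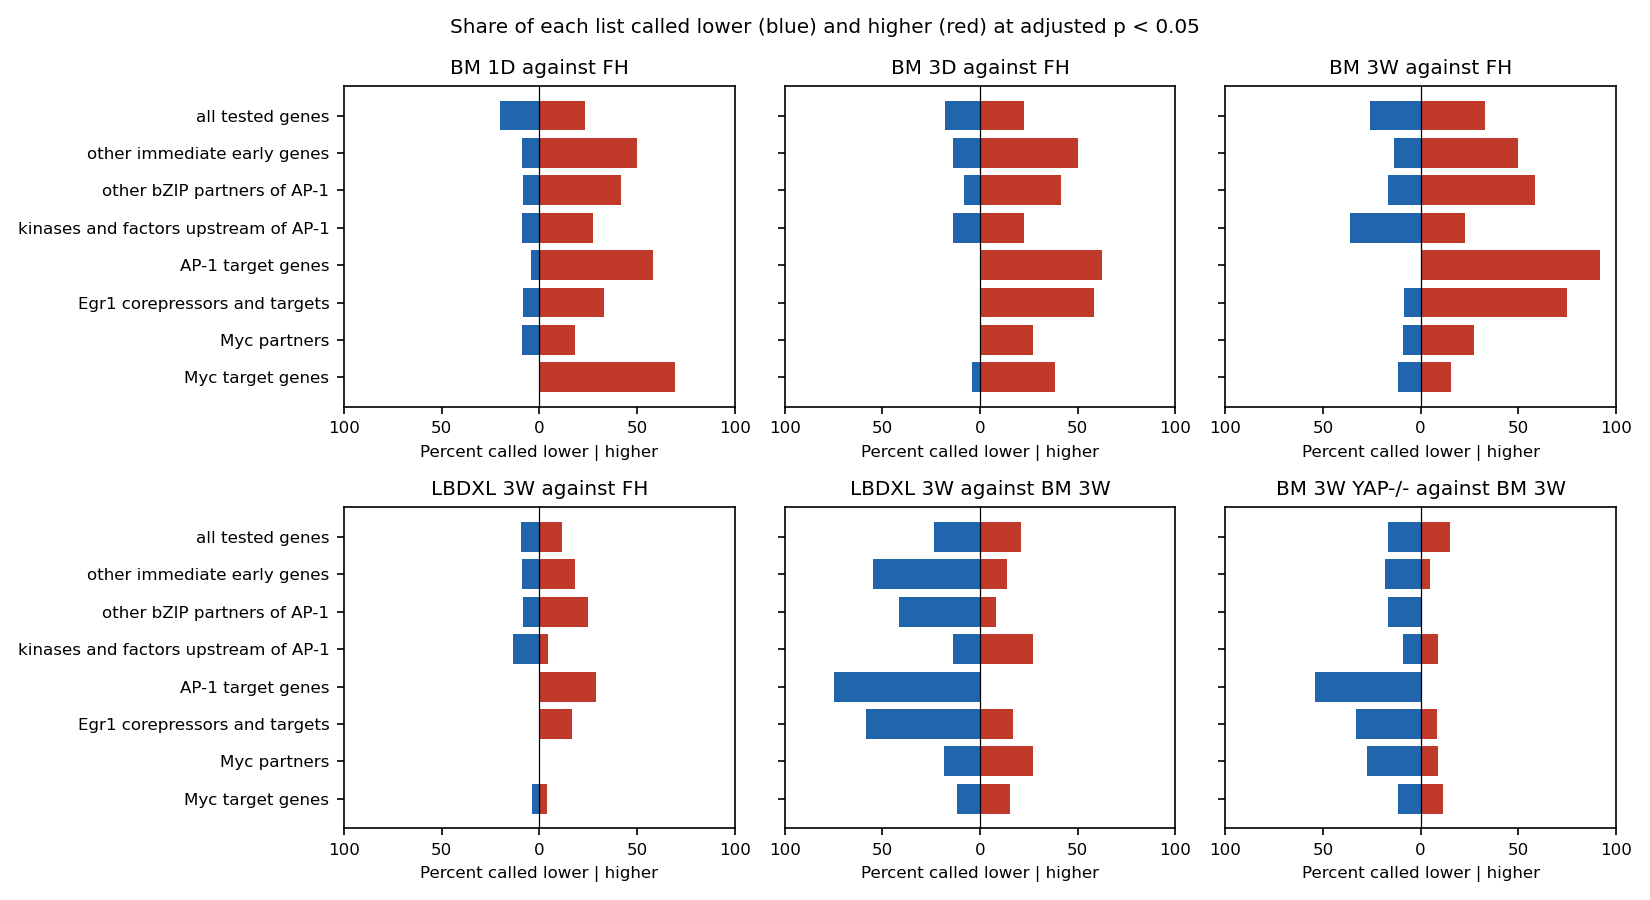
Percent of the tested genes of each list called lower (blue, left) and higher (red, right) at an adjusted p of 0.05 with TMM scaling, in 6 comparisons, beside all genes tested. AP-1 target genes show 22 of 24 higher in BM 3W against FH and 18 of 24 lower in LBDXL 3W against BM 3W. The upstream kinases, 5 higher and 8 lower in BM 3W against FH here, were 15 and 1 with total counts, where 65.8% of all genes were higher and 9.67% lower.

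**Figure D5:**
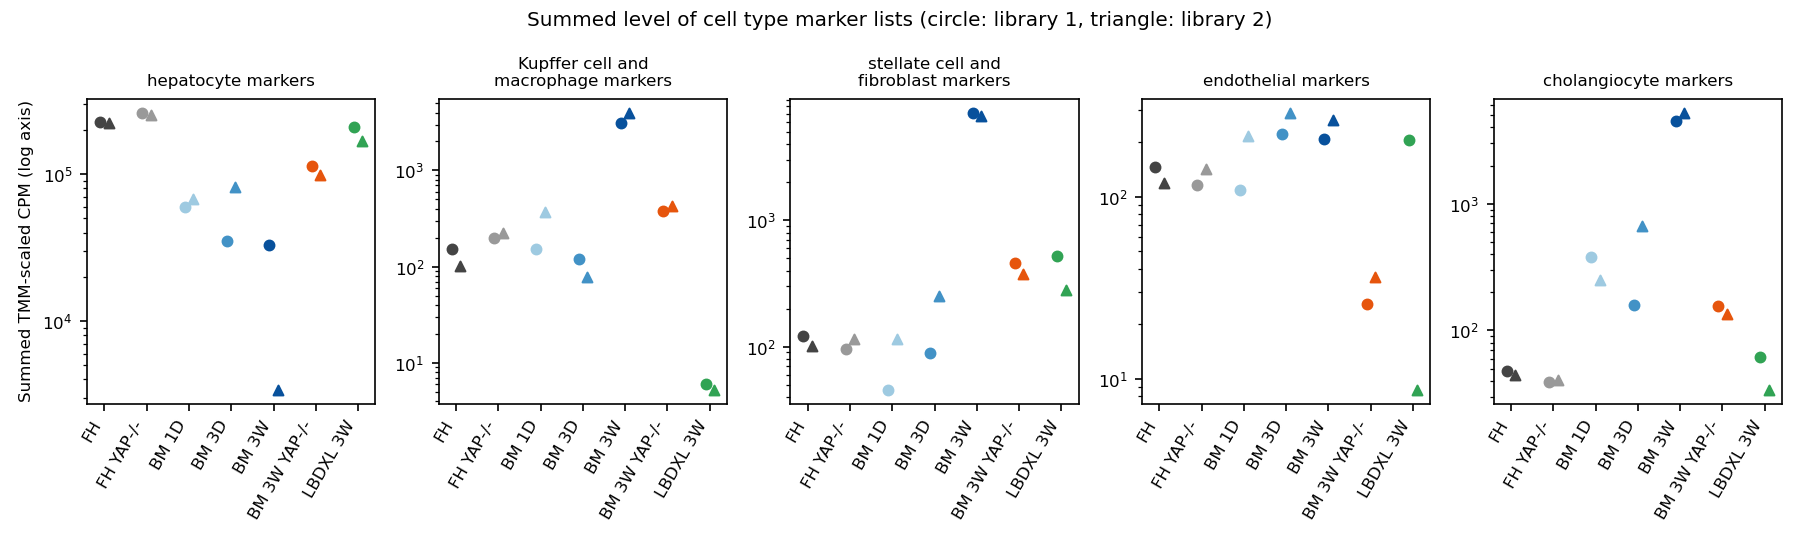
Summed TMM-scaled CPM (log axis) of 5 cell type marker lists in each library; circles are library 1 and triangles library 2. Macrophage markers lie at 3086 to 3977 CPM in BM 3W and 5.26 to 5.97 CPM in LBDXL 3W, and endothelial markers at 203 CPM in LBDXL 3W 1 and 8.70 CPM in LBDXL 3W 2.

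The genes most like 4 of the members were taken by Pearson's r of log2 CPM over the 14 libraries among 8498 genes, as a description in which all points share libraries and groups. Fosl1 was followed most closely by Pdcl3 (0.99) and Nras (0.982), both lowest in the fresh cells and highest in BM 1D. Jun was most like Inmt (0.950), Cyp2e1 (0.937) and Il1rap (0.932), all with their highest levels in fresh cells. Egr1 was most like Uri1 (0.880), Il1r1 (0.860) and Tfdp2 (0.853), and Myc most like Abcb1b (0.930), Tex10 (0.923) and Ddx52 (0.918).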

How the data were processed

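The authors deposited raw counts per gene and FPKM per gene for all 14 libraries. Their notes on processing (per the submitters' processing notes) name the genome build GRCm38.p6 and the tools HISAT2, Trimmomatic, HTSeq, Cufflinks and DESeq, without versions, settings or use of strand, which are not given in the sources used here. TruSeq Stranded mRNA libraries were made from total RNA, per the labels' protocols. The symbols of 27 genes altered by a spreadsheet were restored, and 4326 of 21878 genes were at 0 counts throughout.

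The test on counts was that of edgeR 4.0.16 (R 4.3.3): filterByExpr on group, TMM, 1 model with a mean for each of 7 groups, quasi-likelihood F-test, Benjamini-Hochberg adjustment over 14100 genes, calls at an adjusted p under 0.05. The SE of a fold change was derived from its F statistic. For a lower bound, a library at 0 was set to 3 counts. Whether the 2 libraries of a group are separate animals or cultures is not stated, and p-values therefore reflect the spread of these libraries alone. The test was run on simulated counts in which all genes and groups had the same spread. The groups here differ in spread, so that run cannot check the estimate of spread that they share. Members and gene lists were chosen with earlier results of these data known, so counts over lists support nothing by themselves. Every member could be named, and from each list up to 3 called genes per comparison with the smallest p and at least 5 CPM in the higher group. Lists held AP-1 targets, other immediate early genes, bZIP partners, upstream kinases, Egr1 corepressors and targets, Myc partners and targets, heat shock genes and markers of hepatocytes, macrophages, stellate cells, endothelium, cholangiocytes, and neutrophils and lymphocytes. The last summed to 30.7 to 53.7 CPM in BM 3W and 3.64 to 5.33 in FH.

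Alternatives were total count scaling, DESeq2 size factors, no filter, DESeq2 1.42.0's own Wald test, the compared groups alone, a replicate block, removal of the 20 most abundant genes, limma 3.58.1 on log2(FPKM + 1) and log2(FPKM + 0.1) for genes with a mean FPKM of at least 0.5, and each library left out. Family shares came from the FPKM the authors deposited, and likeness was computed for genes with a mean of at least 10 CPM. A few genes that these rules would name are not reported here. Coordinates are from RefSeq (GRCm38.p6) and overlaps from GENCODE M21. Figures used matplotlib 3.10.9.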

Additional observations from a re-analysis of the deposited data

Results flagged for a closer look

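The effect of the YAP-/- label on Fos and on Fosb differed between fresh and cultured cells, by the interaction test in edgeR. For Fos, whose product pairs with Jun, the log2 difference of the effect in BM 3W from that in fresh cells was -2.91 (adjusted p = 0.042): fresh YAP-/- libraries held 39.2 and 41.8 CPM against 26.2 and 16.9 in FH, and cultured ones 2.58 and 2.77 CPM against 12.3 and 9.07 in BM 3W. For Fosb it was -2.92 (0.040), with 1.04 and 1.20 CPM against 1.11 and 0.633 when fresh and 0.632 and 0.352 CPM against 2.13 and 3.77 at 3 weeks. Neither call held without any 1 of the 8 libraries (0.070 to 0.15 for Fos and 0.055 to 0.15 for Fosb), and that for Fosb was also lost with no filter (0.063). Heat shock genes (5 of 10), Atf3 and Gadd45b were higher in FH YAP-/- than in FH. Marker sums of macrophages and stellate cells also differed between BM 3W and BM 3W YAP-/-, and the part of these genes and cells was not tested.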

How the results depend on the processing

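Of 35 calls of single members, 13 passed in the same direction under every alternative that gave a value: Fosl1 in BM 1D, BM 3D and BM 3W against FH, Fosl2 in BM 1D and BM 3W against FH and in LBDXL 3W against BM 3W, Fosb in LBDXL 3W against BM 3W (too low for the FPKM fits), Myc in BM 1D and BM 3D against FH, and Fos, Jun, Jund and Myc in BM 3W YAP-/- against FH YAP-/-. Another 21 lost the threshold under at least 1 alternative and 1 reversed: Jun in BM 3W against FH was 0.50 with total count scaling and 0.61 and 0.63 with FPKM. Among folds that did not pass, Jun in BM 1D against FH was 0.52 with total count scaling and 0.46 and 0.48 with FPKM, Fos in BM 3W against FH 0.27, 0.45 and 0.52, Egr1 there 0.36, 0.40 and 0.41, and Egr1 in LBDXL 3W against BM 3W -0.65, -0.95 and -0.99, -0.027 with DESeq2 size factors and -0.027 in DESeq2, and -1.0 to 0.75 with a library left out. The cause was not tested.

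The number of members called, fitted on the compared groups alone, was 8 in BM 1D against FH (50.5% of all genes), 8 in BM 3W against FH (70.3%), 1 in LBDXL 3W against FH (15.0%), 0 in BM 3D against BM 1D (0% of genes), 2 in LBDXL 3W against BM 3W (29.5%), 5 in FH YAP-/- against FH (37.4%, and 0.943% with all groups), 8 in BM 3W YAP-/- against FH YAP-/- (51.1%) and 5 in the interaction (32.9%). With total count scaling it was 7 in BM 3W against FH (75.5%), 2 in BM 3W against BM 3D (23.0%), 0 in FH YAP-/- against FH (0.879%) and 4 in the interaction (23.0%). DESeq2 called 2 in BM 3D against BM 1D (12.4%), 2 in BM 3W against BM 3D (26.4%) and 4 in the interaction (23.2%), DESeq2 size factors 2 in BM 3W against BM 3D (22.4%), FPKM + 1 gave 2 there (27.2%) and 0 in FH YAP-/- against FH (1.57%), and FPKM + 0.1 gave 0 in the latter (1.51%). With 1 library left out the counts ran from 4 to 6 (BM 1D against FH, 26.3 to 44.6% of all genes), 3 to 5 (BM 3D, 23.5 to 41.5%), 3 to 5 (BM 3W, 40.6 to 59.0%), 0 to 3 (LBDXL 3W, 8.07 to 21.7%), 0 to 2 (BM 3D against BM 1D, 1.22 to 8.28%), 0 to 1 (BM 3W against BM 3D, 11.6 to 27.8%), 2 to 5 (LBDXL 3W against BM 3W, 27.3 to 44.9%), 0 to 5 (BM 3W YAP-/- against BM 3W, 13.3 to 35.4%), 0 to 1 (FH YAP-/- against FH, 0.0889 to 1.58%), 4 to 6 (BM 3W YAP-/- against FH YAP-/-, 19.5 to 37.8%) and 0 to 4 (interaction, 5.47 to 20.7%).

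Library numbers were not taken to pair libraries: same-numbered libraries of 21 pairs of groups had correlations of -0.02 to 0.46, 5 of them over 0.1. With the replicate block 2 members were called in BM 3D against BM 1D (6.35% of all genes), 2 in BM 3W against BM 3D (26.6%) and 4 in the interaction (19.1%), where Jun (adjusted p = 0.044) and Myc (0.017) passed, and Junb in LBDXL 3W against BM 3W did not pass (adjusted p = 0.057). Depth limits Fosb and Fosl1 most, at 3 to 5 counts each in LBDXL 3W 2. Libraries of the same cultured group differed far more (chi-square per degree of freedom 68 to 235) than those of FH and FH YAP-/- (5.49 and 4.04).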
